A study of Cucurbita moschata with 6 samples.

Results

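MYB transcription factors bind DNA through repeats of the MYB domain, and plants carry a large family of them. Factors with a pair of repeats (R2R3) switch on or repress genes of secondary walls, lignin, flavonoids, trichomes, cuticle and stress responses. Factors with more repeats (3R) act on genes of cell division, and factors with a single repeat include regulators of sugar and drought responses. The genes described here are the MYB genes of pumpkin (Cucurbita moschata) outside the circadian clock. They were taken by product name, as every gene of the deposited table whose product reads as a MYB transcription factor, a myb-related protein, a MYB-like protein or a MYB repressor, without the clock genes REVEILLE, LHY and CCA1. This gave 163 of 32205 genes. The product names rest on similarity to a named protein, which was a protein of Cucurbita moschata for 156 of the 163 genes, and the roles given below are those of the namesakes in the species stated.

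The libraries hold poly(A) RNA from hypocotyls, the stem between root and cotyledons, taken from seedlings with unfolded cotyledons raised in days of 14 h (28 °C) and nights of 10 h (18 °C). Their titles divide the 6 libraries into SCK, read here as the control because CK is a customary mark for it, and SR, with 3 libraries each. A far-red treatment of 120 s is recorded for all 6 libraries alike, so the labels do not say how the SR seedlings differed from the SCK seedlings. Whether replicates came from separate plants is not stated, and p-values therefore measure the spread between these libraries, which may be technical.

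Library totals ran from 52300725 to 72356397 deposited counts. Changes are SR relative to SCK, on the log2 scale with standard errors, from edgeR's quasi-likelihood test on counts with Benjamini-Hochberg adjustment over all 23509 tested genes, and a gene was called at an adjusted p under 0.05. Levels are deposited FPKM, fragments scaled by transcript length and library size, with 0 where the count was 0. SCK replicate 3 often took a middle value: in 56 of the 80 tested MYB genes and 57.6% of all tested genes it fell inside the range of the other SCK libraries, while SR replicate 3 did so among the SR libraries in 28 of 80 and 42.6%. Without SCK replicate 3, edgeR called 0 genes of the table, 5558 of which had an unadjusted p under 0.05, and 0 MYB genes, 16 of which did. The fit without a level filter, used below for weakly expressed genes, called 0 of 29117 genes without that library, 5960 having an unadjusted p under 0.05. Every edgeR call below is therefore lost without that library, and this is not repeated for each gene. DESeq2 without it called 6 rises and 7 falls of MYB genes, and limma called 0. Lists taken as markers of other tissues were set next to all tested genes. Of all tested genes edgeR called 14.4%, with 7.2% rises and 7.16% falls, and the counts of each list stand next to these shares. The photosynthesis and phloem lists had a larger share called than all tested genes, and the root and seed lists did not. The summed FPKM of 29 light-harvesting and Rubisco small-subunit genes ran from 9750 to 16200 in SCK and from 7940 to 9830 in SR, with 10 falls among 26 tested (38.5% called). The sum of 26 phloem protein and sieve element occlusion genes ran from 4040 to 4270 and from 3720 to 6490, with 6 rises among 24 (25% called). The root list holds genes named for CASP-like, Casparian strip or root meristem growth factor proteins, and whether they mark root tissue was not tested. The sum of its 48 genes ran from 257 to 283 and from 228 to 240, with 2 rises and 2 falls among 31 (12.9% called). The sum of 23 seed storage and oleosin genes ran from 26.2 to 35.2 and from 31 to 39, with 1 rise among 7 (14.3% called). Of 88 tested heat shock and universal stress genes, 14 rose and 6 fell (22.7% called), and their sum ran from 2520 to 2770 and from 2760 to 2900. Phloem rises became 0, 2 and 1 without SCK replicate 2, SR replicate 2 and SR replicate 3, and light-harvesting falls 5, 4 and 0 without SCK replicate 1, SR replicate 2 and SR replicate 3. Stress gene rises became 6, 10, 9 and 3 without SCK replicate 1, SCK replicate 2, SR replicate 2 and SR replicate 3, and stress gene falls 3, 1, 4 and 2. Root list rises became 0 without any of these 4 libraries and 1 without SR replicate 1, and its falls 2, 2, 1 and 1. The seed list rise was lost without SCK replicate 1, SCK replicate 2 or SR replicate 3. Members with no count in any library numbered 1 of the photosynthesis list, 0 of the phloem list, 7 of the root list, 6 of the seed list and 6 of the stress list. The part of tissue makeup in the results below was not tested, and in whole hypocotyls fewer cells of a type and less RNA per cell cannot be told apart.

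About as many MYB genes rose as fell. Of the 163 genes, 80 reached an FPKM of 1 in at least 3 libraries and were tested, 59 were detected below that level, and 24 had no count in any library. Of the 80, 6 rose and 7 fell. That is 16.2% called, next to 14.4% of all tested genes, of which 7.2% rose and 7.16% fell. The median log2 change was -0.07 for the tested MYB genes and 0.01 for all tested genes, which moves to 0.14 for all genes without TMM scaling. The SR values lay wholly above the SCK values in 14 MYB genes and wholly below them in 12, together 32.5% of those tested. Over all tested genes SR lay wholly above SCK in 27.9% and wholly below in 12.7%, together 40.6%. MYB genes spread more between replicates than the median gene: the median range of log2(FPKM + 1) within a group was 0.46 in SCK and 0.61 in SR, next to 0.33 and 0.38 over all tested genes. Without the level filter 139 MYB genes were tested and 14 called, 7 in each direction, next to 10.2% of all genes; DESeq2 called 9 rises and 12 falls, next to 25.6% of all genes. Of the 6 rises, 3 had an SCK library under 1 FPKM and so reached the level of testing with the help of SR, next to 243 of the 1692 rises over all genes. At least 2-fold changes made up 5 of the 6 rises and 4 of the 7 falls.

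**Figure D1:**
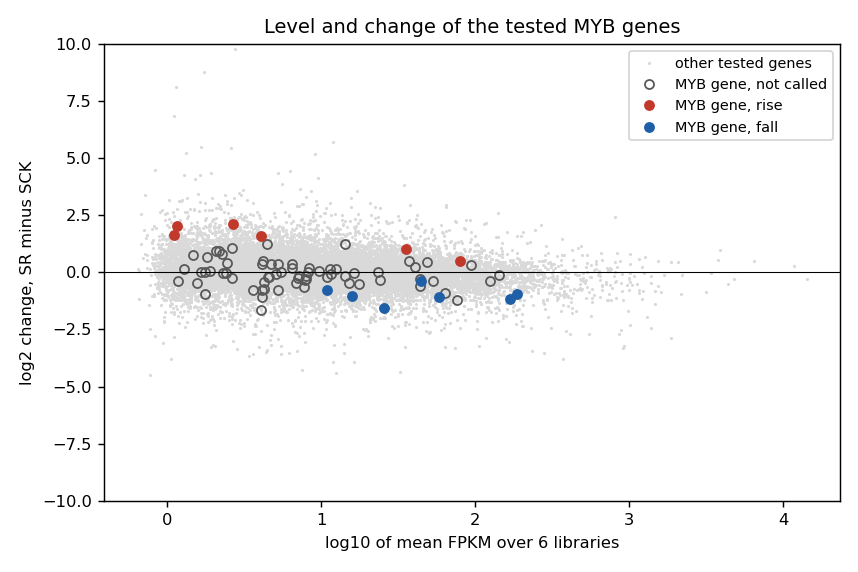
Mean FPKM over the 6 libraries (log10, horizontal axis) against the log2 change of SR minus SCK (vertical axis). Grey dots are the other tested genes, open circles the 67 tested MYB genes that were not called, and filled circles the 6 rises (red) and 7 falls (blue). Of the 10 MYB genes with a mean of at least 50 FPKM, 4 were called, and 4 of the 49 with a mean under 10 FPKM. Of all tested genes at any level 14.4% were called. The shares of all genes at these levels were not computed, so the counts cannot show a trait of abundant MYB genes.

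The calls by role stand next to 7.2% rises and 7.16% falls over all tested genes. Secondary wall and lignin factors had 1 rise among 6 tested. Phenylpropanoid, flavonoid and anthocyanin factors had 2 rises and 1 fall among 9. Factors of epidermis, trichomes, cuticle and suberin had 2 rises and 1 fall among 11. Those of root growth and nutrients had 1 fall among 4, and single-repeat factors 3 falls among 12. Products placed in no role had 1 rise and 1 fall among 17. No gene was called among the factors of abscisic acid, jasmonate and stress, of gibberellin and reproductive organs, or of the cell cycle and stomatal lineage, where edgeR gave an unadjusted p under 0.05 to 4 of 11, 0 of 4 and 2 of 6 genes and DESeq2 called 1, 0 and 0. In each of the 13 called genes the 3 SR values and the 3 SCK values did not overlap, next to 40.6% of all tested genes. The calls were made on these same values, so the lack of overlap adds no support to them.

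**Figure D2:**
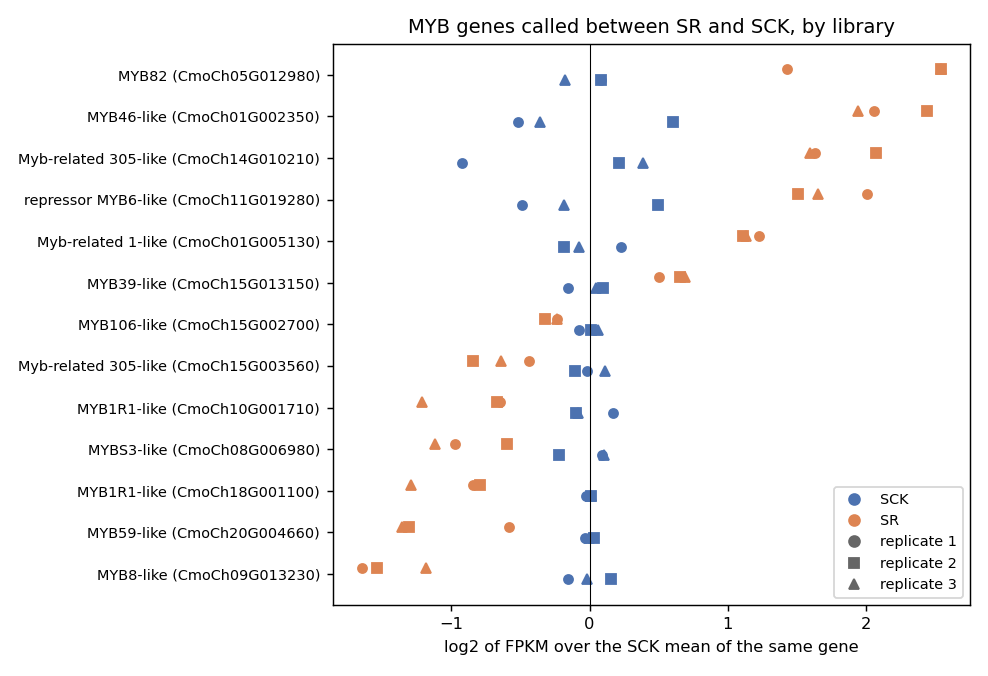
The 13 called MYB genes, each library as a point at the log2 of its FPKM over the gene's SCK mean. Colours are the groups and shapes the replicate numbers. The 6 genes at the top rose and the 7 below them fell, from MYB82 at a fitted log2 change of 2.10 down to MYB8-like at -1.58.

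Genes of the secondary wall factors MYB46 and MYB83 were at most at 0.648 FPKM in SCK and were detected in every SR library. In Arabidopsis MYB46 and MYB83 sit near the top of the network that switches on cellulose, xylan and lignin genes in xylem vessels and fibres. The table holds 3 MYB46-like genes and 1 MYB83 gene. MYB46-like CmoCh01G002350 (chromosome 1, 1059837 to 1061582, plus strand) was at 0.298, 0.648 and 0.332 FPKM in SCK replicates 1 to 3 and at 1.77, 2.32 and 1.64 FPKM in SR replicates 1 to 3. It rose by 2.02 ± 0.37 (adjusted p = 0.0203), and it entered the test only through its SR libraries. Its call held when SCK replicate 2 or SR replicate 1 was left out and was lost when SCK replicate 1, SR replicate 2 or SR replicate 3 was (adjusted p 0.0333 to 0.0958 over the 6 fits).

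The other three genes of this pair of names lay under the level of testing. MYB83 CmoCh17G009280 (chromosome 17, 8272086 to 8273525) had 0 counts in each SCK library and 38, 79 and 58 in SR, or 0.507, 0.958 and 0.755 FPKM. Set against a floor of 12 deposited counts over the SCK libraries, taken as 3 read pairs, it was 12.7-fold higher in SR. That value depends on the floor. The lower end of the exact 95% interval of the ratio, which uses no floor, was 9.94. MYB46-like CmoCh02G012850 had 0, 8 and 0 counts in SCK and 122, 44 and 68 in SR, a ratio of pooled counts per total of 25.4 with a 95% exact interval of 6.67 to 213. MYB46-like CmoCh20G000840 had 0, 0 and 10 counts in SCK and 63, 44 and 74 in SR, a ratio of 15.7 (5.11 to 166). The intervals take 4 deposited counts as 1 read pair and cover counting error only. In an edgeR fit of all 29117 genes with a count, 5.05% of genes rose and MYB83 was called (adjusted p = 0.0184; 0.0292 to 0.0836 with 1 library left out, the call being lost without SCK replicate 3, SR replicate 2 or SR replicate 3), while the MYB46-like genes on chromosomes 2 and 20 were not (0.0781 and 0.0963). In all 4 genes every SR library lay above every SCK library, as in 27.9% of all tested genes. That share was not computed for genes under the level of testing.

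**Figure D3:**
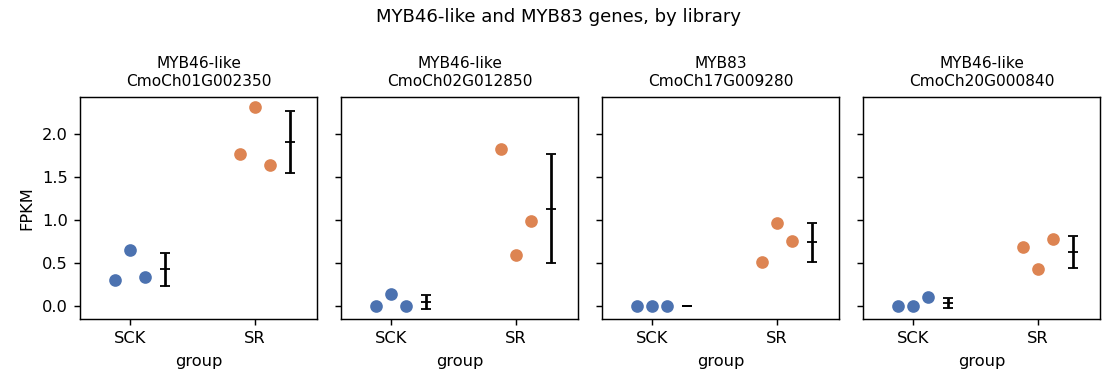
FPKM of the 3 MYB46-like genes and of MYB83 in each library, with the mean and SD (n = 3) of each group as a bar. SCK libraries lie between 0 and 0.648 FPKM and SR libraries between 0.422 and 2.32 FPKM.

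The remaining secondary wall factors gave no call. MYB61, a regulator of xylem formation in Arabidopsis, was the most abundant: CmoCh10G012670 was at 30.6, 44.5 and 41.9 FPKM in SCK and 70.6, 55.5 and 47.4 FPKM in SR (log2 change 0.44 ± 0.20, adjusted p = 0.170). The other tested MYB61-like genes, CmoCh11G012520 and CmoCh11G000750, had log2 changes of 0.51 ± 0.31 and 0.39 ± 0.72. MYB58-like CmoCh19G009840, named after a lignin activator, stood at -0.39 ± 0.54, and MYB20-like CmoCh01G003920 at 0.92 ± 0.78. Of the 20 genes in this role, 6 were tested, 14 were not, and the median log2 change of the 6 was 0.48.

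Genes that build the secondary wall were described next to these factors, by lists of product names. Xylan synthesis genes rose in 7 of 18 tested cases and fell in 0 (38.9% called, next to 14.4% of all genes; median log2 change 0.57). Of these rises, 5 had an SCK library under 1 FPKM and reached the level of testing only with SR, so the share called and the median are a description of the tested genes. Xylosyltransferase IRX9 (CmoCh14G001860), which extends the xylan backbone, rose from 0.693 ± 0.097 to 3.13 ± 0.59 FPKM, by 2.02 ± 0.24 (adjusted p = 0.0113). Glucuronoxylan 4-O-methyltransferase 3-like (CmoCh15G000070), which methylates xylan side groups, rose from 0.436 ± 0.181 to 5.45 ± 2.42 FPKM (adjusted p = 0.0136). The other rises, named after their values were seen, were 2 IRX15-LIKE genes (CmoCh07G007040 and CmoCh11G013780), IRX10 (CmoCh14G014290), a xylan glucuronosyltransferase 1-like gene (CmoCh07G008160) and a second IRX14 (CmoCh03G009810), by 0.48 to 4.50. IRX10, a partner of IRX9 and IRX14 in Arabidopsis, went from 0.228 ± 0.185 to 2.29 ± 0.22 FPKM (adjusted p = 0.0204). The most abundant, IRX14 on chromosome 7 (CmoCh07G007010), was at 41.3 ± 18.2 and 32.3 ± 9.08 FPKM (log2 change -0.47 ± 0.37).

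Secondary wall NAC factors, which act above MYB46 in Arabidopsis, held 2 rises among 6 tested, next to 7.2% rises over all genes, and both had an SCK library under 1 FPKM and reached the level of testing only with SR. Both rises were NAC domain-containing protein 7-like genes, CmoCh02G015700 from 1.15 ± 0.35 to 3.21 ± 0.60 FPKM and CmoCh04G003520 from 0.582 ± 0.249 to 2.53 ± 1.03 FPKM (adjusted p = 0.0416 and 0.0382). The most abundant, NAC domain-containing protein 30-like (CmoCh05G002320), stood at 18.1 ± 2.32 and 19.8 ± 1.99 FPKM. Cellulose synthase catalytic subunits held 1 rise among 12 (8.33% called, next to 14.4% of all genes), subunit 5-like (CmoCh09G011850, 38.9 ± 6.61 to 79.6 ± 6.13 FPKM, adjusted p = 0.0153), a subunit of primary walls in Arabidopsis. The next by p was subunit 2-like on chromosome 1 (CmoCh01G009430, 26.0 ± 7.81 and 57.2 ± 15.6 FPKM, adjusted p = 0.0503), and the most abundant was subunit 1 (CmoCh09G004750, 69.4 ± 10.0 and 107.6 ± 26.8 FPKM, adjusted p = 0.125). Subunits 4, 7 and 8 form the secondary wall complex in Arabidopsis. Their 4 tested genes, chosen after their values were seen, gave no call, with log2 changes of 0.39 ± 0.13 (subunit 4), 2.33 ± 0.70 (subunit 7-like, CmoCh10G004910) and -0.07 ± 0.17 and 0.20 ± 0.14 (subunit 8 genes). A further 3 subunit 7 genes lay under the level of testing, and SR lay wholly above SCK in each, as in 27.9% of all tested genes. CmoCh10G004920 had 0 counts in each SCK library and 37, 50 and 76 in SR, and CmoCh11G004480 was at 0.212, 0.364 and 0.158 FPKM in SCK and 0.913, 0.934 and 0.937 FPKM in SR. The fit without a filter called both (adjusted p = 0.0203 and 0.0243), not CmoCh11G004490 (0.165), and both calls were lost without SCK replicate 3, SR replicate 2 or SR replicate 3, that of CmoCh11G004480 also without SCK replicate 1. These 3 genes and CmoCh10G004910 form 2 overlapping pairs on opposite strands, so reads may be shared.

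Lignin enzymes and laccases rose in 7 and fell in 5 of 64 tested cases, a share of 18.8%. Laccase-4-like (CmoCh14G000810), which couples lignin monomers, rose from 4.37 ± 0.19 to 10.7 ± 2.02 FPKM, and a caffeoylshikimate esterase-like gene (CmoCh18G002550), the most abundant of the list, fell from 137 ± 35.5 to 35.5 ± 8.14 FPKM (adjusted p = 0.0127 and 0.0116). Left without SR replicate 3, edgeR called 2 rises of xylan genes, 0 of the NAC factors, 0 of cellulose synthase, and 1 rise and 2 falls of lignin genes. Without SCK replicate 3 it called 0 in each of these lists, where DESeq2 called 7 xylan, 2 NAC, 3 cellulose synthase and 7 lignin rises and 5 lignin falls. NAC rises numbered 0, 0, 1 and 0 without SCK replicate 1, SCK replicate 2, SR replicate 1 and SR replicate 2. In the same order, xylan rises were 6, 3, 7 and 4, cellulose synthase rises 2, 1, 5 and 1, lignin rises 3, 6, 5 and 2, and lignin falls 2, 3, 3 and 2. The phloem rises given above accompanied these, and their part in the results was not tested.

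**Figure D4:**
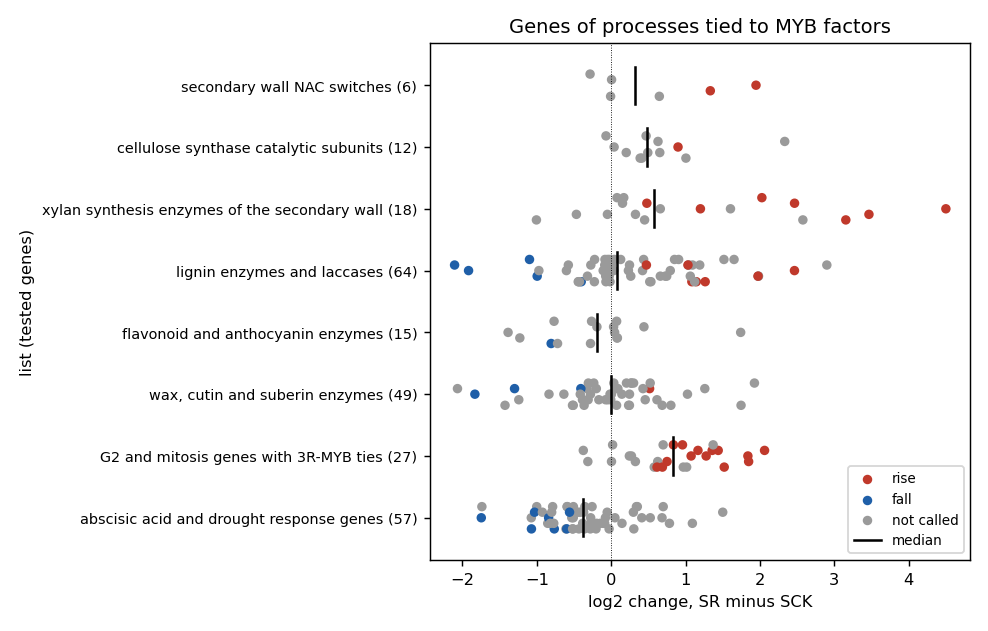
Log2 change of SR minus SCK (horizontal axis) for every tested gene of 8 lists of processes tied to MYB factors, with the number tested in brackets. Red points rose, blue points fell, grey points were not called, and black bars are medians. Rises make up 7 of 18 xylan genes and 14 of 27 genes of G2 and mitosis, next to 7.2% of all tested genes.

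Among phenylpropanoid and flavonoid factors, a short gene named for a MYB6-like repressor rose. CmoCh11G019280 (chromosome 11, 13357985 to 13358412, minus strand) was at 1.34, 2.66 and 1.66 FPKM in SCK and 7.59, 5.37 and 5.95 FPKM in SR, a rise of 1.61 ± 0.36 (adjusted p = 0.0330). The SR values were all above the SCK values. The call was kept only without SCK replicate 2 (0.0471 to 0.129 over the 6 fits). Its neighbour 635 bp away on the plus strand, MYB102-like CmoCh11G019270, was at 1.14, 2.003 and 1.58 FPKM in SCK and 4.47, 3.93 and 2.63 FPKM in SR, without overlap and without a call (log2 change 1.09 ± 0.33, adjusted p = 0.0693). The other MYB6-like repressor, CmoCh01G008740, was the most abundant factor of this role. It stood at 50.6, 39.7 and 47.0 FPKM in SCK and 30.9, 35.9 and 58.7 FPKM in SR (log2 change -0.27 ± 0.25, adjusted p = 0.485).

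A pair of myb-related proteins named for snapdragon MYB305, which activates phenylpropanoid genes in flowers, went opposite ways. CmoCh14G010210 (chromosome 14, 5561044 to 5562873) rose from 0.263, 0.578 and 0.652 FPKM to 1.54, 2.09 and 1.51 FPKM, by 1.64 ± 0.38 (adjusted p = 0.0346). It entered the test only through its SR libraries, and its call was lost without any of the 6 libraries (0.0557 to 0.0958). CmoCh15G003560 (chromosome 15, 1669040 to 1670819) was higher, at 13.2, 12.4 and 14.4 FPKM in SCK and 9.84, 7.41 and 8.52 FPKM in SR. It fell by 0.76 ± 0.18 (adjusted p = 0.0374), a call kept only without SR replicate 1.

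Other factors of this role gave no call. The MYB114-like genes, named after an anthocyanin activator, had log2 changes of 0.77 ± 0.33 (CmoCh14G012670) and 0.35 ± 0.50 (CmoCh01G000450). Of the 4 genes named after the flavonol activator MYB111, 1 was tested, CmoCh08G012300, at -0.04 ± 0.43. The tested genes named for snapdragon MYB308, a repressor of the phenylpropanoid pathway, stood at -0.26 ± 0.20 (CmoCh20G007520) and -0.01 ± 0.15 (CmoCh02G002520). Of 15 tested flavonoid and anthocyanin enzymes, 1 fell and 0 rose (6.67% called). It was anthocyanidin 3-O-glucosyltransferase 2-like (CmoCh01G013450), which adds glucose to anthocyanidins, from 8.27 ± 0.18 to 5.21 ± 0.66 FPKM (adjusted p = 0.0191), and the list had 0 calls without SCK replicate 1, SCK replicate 2 or SR replicate 3 and 2 falls without SR replicate 1 or SR replicate 2. Chalcone-flavonone isomerase 3 (CmoCh04G011290) was at 5.21 ± 0.77 and 3.36 ± 0.46 FPKM (adjusted p = 0.0550). The most abundant, naringenin 3-dioxygenase (CmoCh06G005830), was at 73.7 ± 40.3 and 49.9 ± 11.1 FPKM. Partners of MYB factors in this pathway, the bHLH factor EGL1-like (CmoCh17G004100) and the WD40 protein TRANSPARENT TESTA GLABRA 1 (CmoCh16G000190), had adjusted p of 0.268 and 0.566, and DESeq2 called neither.

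Among factors of the plant surface, MYB82, a regulator of trichome formation in Arabidopsis, had the largest log2 change of the 80 tested MYB genes. CmoCh05G012980 (chromosome 5, 10078444 to 10079521, minus strand) was at 0.977, 0.977 and 0.815 FPKM in SCK and 2.48, 5.39 and 5.37 FPKM in SR. It rose by 2.10 ± 0.36 (adjusted p = 0.0178), and SR replicate 1 lay between the SCK values and the other SR values. It entered the test only through its SR libraries. Leaving out SR replicate 3 also ended the call (highest adjusted p of the 6 fits 0.0903). Of 8 tested trichome and root hair regulators of other families edgeR and DESeq2 called 0, and 0 had an unadjusted p under 0.05 by edgeR. GLABRA 2 (CmoCh01G001120) stood at 55.9 ± 4.43 and 48.3 ± 8.51 FPKM and GIS3-like (CmoCh04G015700) at 6.06 ± 2.32 and 10.5 ± 1.81 FPKM.

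MYB106, which shapes trichomes and cuticle in Arabidopsis, fell slightly. CmoCh15G002700 (chromosome 15, 1295437 to 1297235) was at 46.4, 49.2 and 51.0 FPKM in SCK and 41.5, 39.1 and 41.6 FPKM in SR. It fell by 0.40 ± 0.10 (adjusted p = 0.0399), the smallest change of the 13 called genes. The call was kept only without SR replicate 1, and it was lost without TMM scaling (log2 change -0.27, adjusted p = 0.0938) and by limma (0.110).

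Genes named after MYB39, an activator of suberin synthesis in Arabidopsis roots, were among the most abundant MYB genes. CmoCh15G013150 (chromosome 15, 9030753 to 9032783) was at 56.3, 67.0 and 64.95 FPKM in SCK and 88.9, 98.6 and 101.2 FPKM in SR and rose by 0.48 ± 0.10 (adjusted p = 0.0265), a call kept only without SR replicate 1. CmoCh04G007740 (chromosome 4, 3873627 to 3875852) was at 70.5, 85.9 and 80.4 FPKM in SCK and 99.0, 114 and 115 FPKM in SR, also without overlap, and was not called by edgeR (log2 change 0.34 ± 0.10, adjusted p = 0.0724). DESeq2 called it (0.0233), and so did limma (0.0495) and edgeR without TMM scaling (0.0434).

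Within the same role 2 of 9 MYB41-like and 2 of 8 MYB36-like genes reached the level of testing, without a call. MYB30-like CmoCh04G028930, chosen after its values were seen, was at 0.275, 0.489 and 0.570 FPKM in SCK and 0.236, 3.02 and 8.12 FPKM in SR, so that SR replicate 1 lay below all SCK values. It was not tested, with 2 libraries at 1 FPKM or more. Several of these factors are known to activate wax, cutin or suberin enzymes. Genes listed by name as such enzymes rose in 1 and fell in 3 of 49 tested cases (8.16% called). The wax ester synthase gene WSD1-like (CmoCh11G013740) fell from 9.10 ± 0.90 to 4.04 ± 1.05 FPKM. Long chain acyl-CoA synthetase 9, chloroplastic-like (CmoCh09G007860), rose from 7.02 ± 0.66 to 11.01 ± 0.27 FPKM (adjusted p = 0.0203 and 0.0264). The list takes long chain acyl-CoA synthetases by name, and a further fall, CmoCh06G014210, is named peroxisomal. Whether these synthetases serve surface lipids was not tested. The most abundant, 3-ketoacyl-CoA synthase 11 (CmoCh10G006270), stood at 125 ± 14.9 and 106.4 ± 19.2 FPKM. Falls in this list were 1, 1, 2, 3 and 1 without SCK replicate 1, SCK replicate 2 and SR replicates 1, 2 and 3, and rises 0, 1, 2, 0 and 0.

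The 4 tested factors of root growth and nutrients all had negative log2 changes; edgeR called 1 and DESeq2 all 4, next to 14.4% and 25.6% of all genes. MYB59 restrains root growth and acts in ion transport in Arabidopsis. MYB59-like CmoCh20G004660 (chromosome 20, 2156339 to 2156806, plus strand) was at 222, 233 and 228 FPKM in SCK and 152, 92.0 and 88.7 FPKM in SR, and it fell by 1.16 ± 0.24 (adjusted p = 0.0252). SR replicate 1 lay between SCK and the other SR libraries, and the call was kept only without that library (0.00601 to 0.0973). Its namesake on chromosome 13 (CmoCh13G001580) was at 39.1, 157 and 113 FPKM in SCK and 59.1, 62.5 and 25.6 FPKM in SR. The groups overlapped there through SCK replicate 1 (log2 change -1.19 ± 0.52, adjusted p = 0.159). MYB62-like CmoCh15G007040, named after a factor of phosphate starvation, was at 7.45, 4.84 and 5.63 FPKM in SCK and 2.74, 2.84 and 0.763 FPKM in SR without a call (-1.64 ± 0.50, adjusted p = 0.0691), and MYB48-like CmoCh01G005970 stood at -1.06 ± 0.33 (0.0733).

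Single-repeat factors held 3 falls and 0 rises among 12 tested, next to 7.16% falls over all genes. MYB1R1 is known from potato as a factor of drought response. MYB1R1-like CmoCh10G001710 (chromosome 10, 772495 to 774896, plus strand) was the most abundant of all MYB genes, at 268, 223 and 224 FPKM in SCK and 152, 149 and 103 FPKM in SR. It fell by 0.96 ± 0.20 (adjusted p = 0.0264), and the call was kept only without SR replicate 1. It overlaps a transportin gene on the opposite strand, and whether the counting used strand is not stated in the sources at hand. MYB1R1-like CmoCh18G001100 (chromosome 18, 758497 to 761227, minus strand) was at 75.2, 77.2 and 77.1 FPKM in SCK and 42.6, 44.1 and 31.3 FPKM in SR. It fell by 1.10 ± 0.15 (adjusted p = 0.0130), a call kept without each of the libraries but SCK replicate 3 (0.0131 to 0.0762). The other MYB1R1 genes, CmoCh04G016860 and CmoCh11G001290, were lower and had log2 changes of -0.29 ± 0.19 and -0.15 ± 0.28.

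MYBS3 represses sugar-regulated amylase genes and acts in cold response in rice. MYBS3-like CmoCh08G006980 (chromosome 8, 4439062 to 4442372, plus strand) was at 22.0, 17.7 and 22.2 FPKM in SCK and 10.5, 13.7 and 9.49 FPKM in SR. It fell by 1.02 ± 0.17 (adjusted p = 0.0164), a call also lost without SR replicate 3 (highest of the 6 fits 0.0864). The second MYBS3-like gene, CmoCh17G007360, had a log2 change of 0.16 ± 0.13. The 3 MYBS1-like genes lay between -0.32 and 0.15 and the 3 tested MYBC1-like genes between -0.71 and 0.36, without a call.

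**Figure D5:**
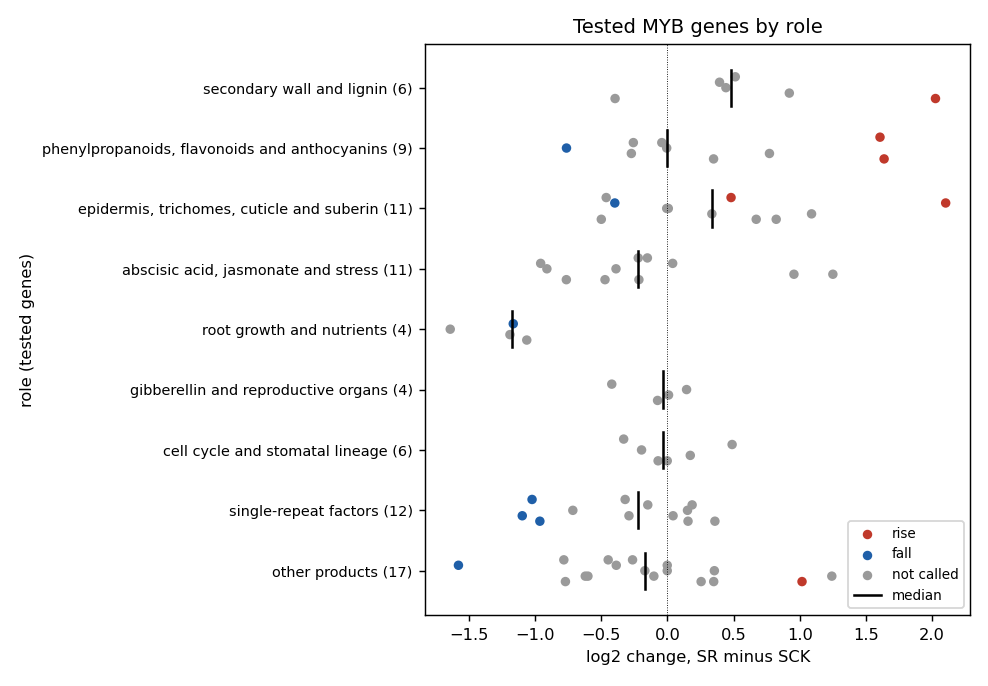
Log2 change of SR minus SCK (horizontal axis) for the 80 tested MYB genes, placed by the role of their namesake, with the number tested in brackets. Red points rose, blue points fell, grey points were not called, and black bars are medians. Medians run from -1.18 for root growth and nutrients to 0.48 for secondary wall and lignin.

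Among products placed in no role, MYB8-like CmoCh09G013230 (chromosome 9, 11979069 to 11980609, minus strand) had the smallest p of all MYB genes. It was at 33.7, 41.8 and 36.96 FPKM in SCK and 11.9, 12.9 and 16.5 FPKM in SR, and it fell by 1.58 ± 0.15 (adjusted p = 0.00942). The call was kept without each of the libraries but SCK replicate 3 (0.00890 to 0.0749). The other 4 genes named MYB8-like were not tested. Myb-related protein 1-like CmoCh01G005130 (chromosome 1, 2468014 to 2469314, plus strand) was at 25.8, 19.4 and 20.9 FPKM in SCK and 51.5, 47.7 and 48.2 FPKM in SR. It rose by 1.02 ± 0.15 (adjusted p = 0.0142), and the call was also lost without SR replicate 3 (highest of the 6 fits 0.0836). The MYB86-like genes were abundant and spread widely in SR. CmoCh12G008720 was at 138, 140 and 147 FPKM in SCK and 105.1, 116 and 214 FPKM in SR (adjusted p = 0.824), and CmoCh05G010620 at 143, 128 and 137 FPKM and 77.7, 137 and 131 FPKM (0.230).

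The MYB44-like genes were the largest set of one name, with 11 genes of which 9 were tested and 0 called. By edgeR 4 of the 9 had an unadjusted p under 0.05, and DESeq2 called 1 rise. MYB44 acts in abscisic acid response and stomatal closure in Arabidopsis. SR replicate 2 was the highest SR library in all 9, next to 34 of all 80 tested MYB genes and 44.7% of all tested genes. SCK replicate 1 was the highest SCK library in 6 of the 9, next to 29 of 80 and 32.7%. The most abundant, CmoCh12G005160 (chromosome 12, 3170925 to 3171734), was at 98.6, 61.5 and 79.6 FPKM in SCK and 23.1, 96.2 and 24.3 FPKM in SR. Its log2 change was -0.91 ± 0.54 (adjusted p = 0.287) over all libraries, and -1.88 (0.0251) without SR replicate 2. CmoCh07G006920 showed the same order, at 9.46, 5.11 and 6.71 FPKM in SCK and 3.36, 14.6 and 3.68 FPKM in SR. CmoCh02G005070 was at 56.7, 57.2 and 58.3 FPKM in SCK and 41.9, 60.7 and 42.8 FPKM in SR (adjusted p = 0.108). Of the 6 genes named for snapdragon MYB306, all were tested and 0 called by edgeR or DESeq2, with 0 at an unadjusted p under 0.05, and SCK replicate 1 was the highest SCK library in 5. Abscisic acid and drought response genes fell in 7 of 57 tested cases and rose in 0 (12.3% called, median log2 change -0.38). The receptors PYL4-like (CmoCh07G011240) and PYL9-like (CmoCh14G021660) fell from 53.5 ± 3.41 to 28.9 ± 3.59 FPKM and from 225 ± 14.2 to 146 ± 9.93 FPKM (adjusted p = 0.0119 and 0.0158). The most abundant gene of that list, dehydrin ERD14-like (CmoCh05G010130), stood at 984 ± 116 and 1054 ± 309 FPKM (adjusted p = 0.950). Falls in that list became 3 on leaving out SCK replicate 2 and 2 on leaving out SR replicate 3.

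The 3R factors were not called, while 14 of 27 tested genes listed by name for G2 and mitosis were called as rises. In Arabidopsis 3R factors bind the promoters of such genes as activators or repressors. MYB3R-1-like CmoCh12G002160 was at 2.61, 3.996 and 3.28 FPKM in SCK and 4.25, 5.48 and 5.51 FPKM in SR, above SCK without overlap (log2 change 0.49 ± 0.17, adjusted p = 0.102). MYB3R-3-like CmoCh14G001400 was at 8.28, 7.91 and 9.05 FPKM and 7.58, 7.05 and 7.43 FPKM, below SCK without overlap (-0.33 ± 0.12, adjusted p = 0.118). MYB3R-1-like CmoCh09G005440 stood at -0.19 ± 0.16. MYB3R-5-like CmoCh06G002970 was at 10.1, 10.3 and 2.10 FPKM in SCK and 12.8, 2.33 and 12.4 FPKM in SR, so that SCK replicate 3 and SR replicate 2 lay far below the other libraries. MYB3R-1 CmoCh05G006280 was too low to be tested, at 0.332, 0.671 and 0.513 FPKM in SCK and 0.892, 1.22 and 1.16 FPKM in SR. The most abundant gene of this role was MYB124-like CmoCh18G011890, named after a factor of stomatal divisions, at 22.5 ± 3.83 and 24.6 ± 3.68 FPKM (adjusted p = 0.998), which overlaps another gene on the opposite strand.

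Of the 27 tested genes of G2 and mitosis, 14 rose and 0 fell (51.9% called, next to 14.4% of all genes; median log2 change 0.84). Of the rises, 8 had an SCK library under 1 FPKM and reached the level of testing only with SR, so these values describe the tested genes. A cyclin-A3-1 gene (CmoCh12G005180) rose from 0.974 ± 0.099 to 3.90 ± 1.04 FPKM and a mitotic cyclin S13-7-like gene (CmoCh07G011480) from 0.356 ± 0.133 to 1.64 ± 0.33 FPKM (adjusted p = 0.0132 and 0.0171). The cyclin-A3-1 gene is in the list by its cyclin-A name only, and the phase in which it acts was not tested. The same holds for the FIZZY-RELATED 2-like genes CmoCh02G015370 and CmoCh15G012490, which are among the rises. Whether 3R factors act on any of these genes in pumpkin was not tested. The most abundant, cyclin-B1-2-like (CmoCh04G029730), stood at 65.2 ± 6.43 and 89.6 ± 3.04 FPKM (adjusted p = 0.0650). The KNOLLE-like syntaxins, which act in cell plate formation and were named after their values were seen, rose by 1.84 ± 0.45 (CmoCh03G002620) and 1.52 ± 0.30 (CmoCh07G012200). Leaving out 1 library gave 2, 6 and 0 rises in the order of the SCK replicates and 12, 2 and 1 in that of the SR replicates, and DESeq2 called 12 without SCK replicate 3.

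Factors of gibberellin response and reproductive organs were mostly under the level of testing: 4 of 18 were tested and 5 had no count in any library. The most abundant, MYB33-like CmoCh15G005500, named after a gibberellin-regulated factor of Arabidopsis, was at 11.1, 11.6 and 11.4 FPKM in SCK and 13.8, 13.3 and 14.2 FPKM in SR. The groups did not overlap, and the fitted log2 change was 0.14 ± 0.09 (adjusted p = 0.329). Clock MYB genes, left out by name, gave 0 calls by edgeR among 11 tested, with 5 at an unadjusted p under 0.05, 4 falls by DESeq2 and a median log2 change of -0.44. REVEILLE 6-like CmoCh15G011280 and REVEILLE 8 CmoCh14G001730 had the smallest adjusted p, 0.0532 and 0.0708, and the most abundant was REVEILLE 6-like CmoCh16G001040 at 54.8 ± 4.77 and 62.8 ± 13.2 FPKM. MYB-family products under other names, such as DIVARICATA and RADIALIS, rose in 3 and fell in 2 of 31 tested cases (16.1%). DIVARICATA-like CmoCh03G003780 rose from 7.87 ± 0.30 to 15.4 ± 0.45 FPKM, PHL8-like CmoCh05G008680 rose from 5.54 ± 1.51 to 14.2 ± 1.81 FPKM, and the abundant DIVARICATA-like CmoCh06G002390 fell from 94.6 ± 11.7 to 45.5 ± 18.3 FPKM (adjusted p = 0.0138, 0.0200 and 0.0304). These 5 calls became 2, 2, 6, 3 and 0 without SCK replicate 1, SCK replicate 2 and SR replicates 1, 2 and 3.

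The MYB genes lay on all 20 numbered chromosomes, with 2 on chromosome 16 and 20 on chromosome 14, and the 13 called genes lay on 10 of them. In the table's gene order 10 pairs of members had at most 3 genes between them, and 5 of these pairs carried the same product name. MYB101-like genes made up 2 such pairs, on chromosomes 11 and 19, and 0 of the 4 reached the level of testing. Gene spans ran from 282 to 10037 bp with a median of 1478 bp.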

How the data were processed

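The authors deposited whole-number counts and FPKM values per gene, per the file headers, and the submitters' processing notes name HISAT and StringTie with neither version nor role. No source used here states which genome build and gene models were used, whether counting used strand, or the counting of reads that similar genes share. Values of near-identical or overlapping genes are thus uncertain, and positions are those of the deposited table. None of the gene IDs matched the RefSeq table given (0 of 32205). There are 6 more value columns, of no sample here, and they were left out. The count 4 occurred 1350 times, next to 567 and 516 times for 3 and 5, so 1 read pair may be worth about 4 deposited counts. FPKM of 0.0001 stands where the count is 0 and was set to 0 in levels.

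Genes that reached FPKM 1 in 3 or more libraries were tested with edgeR 4.0.16 (quasi-likelihood, TMM factors, group as the only term, R 4.3.3) on the deposited counts. Adjustment was by Benjamini-Hochberg over all 23509 genes. DESeq2 1.42.0, limma 3.58.1 on log2(FPKM + 1), DESeq2's size factors, no scaling factors, no filter, a replicate block and leaving out each library were alternatives; DESeq2 and limma without SCK replicate 3, and no filter without each library, were added after seeing the data. Only the main edgeR fit and the DESeq2 and limma fits with no library left out were tested on simulated counts. Limma was tested there on counts scaled to library size, not on FPKM. The other alternatives were not tested on simulated counts. Standard errors are log2 changes divided by the square root of F.

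The MYB genes, roles and 17 lists of product names were chosen with earlier results of these data known, and 6 wrongly matched name patterns were dropped from lists after the table was read. Named genes are every called MYB gene, the 5 most abundant, the most abundant of each role, and of each list the 2 with the smallest adjusted p and the most abundant, except the 5 lists of other tissues and stress, given only as counts and sums; others were named to complete a set of one name or said to be chosen after their values were seen. Exact permutation over 3 against 3 libraries cannot go below p = 0.10 and was not used.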

Additional observations from a re-analysis of the deposited data

How the results depend on the processing

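All 13 called MYB genes kept their sign in each of the other settings run. Leaving out 1 library gave 0 to 5 rises in place of 6 and 0 to 7 falls in place of 7. DESeq2 called 9 rises and 12 falls, limma 8 and 6, and edgeR 7 and 6 without TMM factors, 6 and 7 with DESeq2's size factors and 7 and 7 without the filter. Limma without SCK replicate 3, added after seeing the data, called 0 and 0, and DESeq2 6 and 7. Without the filter, also added then, leaving out 1 library gave 3, 4, 0, 8, 1 and 0 rises and 4, 3, 0, 7, 5 and 2 falls in the order SCK replicates 1 to 3 and SR replicates 1 to 3. Genes called over the 17 lists were 94, with 172 by DESeq2, 0 by limma without SCK replicate 3 and 0 to 99 when a library was left out, or 38, 33, 0, 83, 33 and 14 in the same order without the filter. No source used here says whether the replicate numbers pair the libraries. Deviations of same-numbered libraries correlated at -0.15, -0.25 and 0.09, which cannot show whether the libraries were paired. With the number as a block edgeR called 0 rises and 0 falls of MYB genes (20 at an unadjusted p under 0.05). That fit also called 0 genes of the lists and 0 genes of the table. Among the called genes, the 5 most abundant and the most abundant of each role, signs turned only in genes that were not called. MYB86-like CmoCh12G008720, at -0.10, moved to 0.029 without TMM factors. It ran from -0.494 to 0.056 when a library was left out (0.044 and 0.035 without the filter and SR replicate 1 or 2). MYB124-like CmoCh18G011890, at -0.001, moved to 0.123 without TMM factors, 0.125 by limma, 0.154 by limma without SCK replicate 3 and 0.001 by DESeq2 without it. It ran from -0.14 to 0.112 when a library was left out (0.081, 0.003 and 0.101 without the filter and SCK replicate 2, SCK replicate 3 or SR replicate 3). The cause of these moves was not tested. The 59 MYB genes detected under the level of testing rest on few read pairs; 139 genes could be fitted without the filter, 35 of them at an unadjusted p under 0.05 and 14 called.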
